A study of Mus musculus with 12 samples.

Results

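Hip cartilage of mice lacking Mapk9 (Mapk9 KO) was compared with that of wild-type (WT) mice in control hips, called uninjured here. All arrays of the series that carry a control label were used, 3 Mapk9 KO and 3 WT, which is 6 of the 12 arrays. Both groups are labelled C57BL6, 4-6 weeks of age and hip cartilage, and they differ in the genotype label (WT or MAPK9 KO). Per the study's methods a replicate pooled 6 hips of 3 mice, and control hips were snap-frozen without culture. The injury itself was avulsion of the femoral epiphysis, after which hips were either frozen (control) or cultured. Control hips thus stand for the time of avulsion and not for tissue left in place. The remaining 6 arrays are of WT and Mapk9 KO hips cultured for 4 h after injury, and they serve here only to set a second pair of groups beside each result. How the Mapk9 allele was made, how far the line was backcrossed and whether littermates served as controls is not given in the sources used here. The labels give no sex and do not say whether pools came from separate litters, so the p-values measure the spread between these pools.

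Mapk9 encodes JNK2, one of the c-Jun N-terminal kinases, which are switched on by stress and cytokines through the kinases MKK4 (Map2k4) and MKK7 (Map2k7) and phosphorylate c-Jun, a part of the AP-1 transcription factor. In cartilage these kinases are known as part of the response to injury and to inflammatory cytokines. Mapk8 encodes the closely related JNK1.

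RNA was measured on Illumina BeadChips, on which each gene is read by one or more probes of 50 bases. Values are the deposited normalized log2 values of 21004 probes, so that a difference of 1 is a factor of 2. A probe was taken as detected where its deposited detection p-value was under 0.05, and between 16930 and 18969 probes were detected on each of the 6 arrays. The groups were compared with limma, and p-values were adjusted by Benjamini-Hochberg across the whole table. Probes that changed more than 2-fold at an adjusted p below 0.05 are referred to as called.

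Few probes passed. Of 21004 probes, 25 (0.119%) were called, 6 of them higher in Mapk9 KO (0.0286%) and 19 lower (0.0905%). They belong to 23 genes, and the lower ones included Mapk9 itself, Nnmt, Sparc, Adamts9, Erdr1, Kif23, Alg9 and Anxa6. The arrays of the 2 groups did not overlap for any of the 25 called probes, against 10.8% of all probes without overlap. At an unadjusted p under 0.05, 3.08% of all probes were higher in Mapk9 KO and 3.38% were lower. The median difference over all probes was -0.01 and 365 probes (1.74%) differed by more than 1 in either direction.

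Several calls rest on 1 probe where another probe of the same gene was not called, so the probes themselves are shown. The first 30 of their 50 bases are given for the targeted gene, for genes whose probes gave different answers, and for a pair of Clcf1 probes that overlap. Apart from the Clcf1 pair, no called probe shared a run of more than 7 bases with another probe of its gene. The capitals in the Clcf1 pair mark the 14 bases that both printed stretches hold, and over the whole probes the pair shared 34 bases.
Mapk9, probe start 900, lower in Mapk9 KO: gtgggttgcatcatgggagagctggtgaaa
Mapk9, probe start 4211, lower in Mapk9 KO: gtcccatgccgatagtcagtacaggtgtga
Nnmt, probe start 525, lower in Mapk9 KO: ctgttcgagatgctgtggaagaggccggtt
Nnmt, probe start 485, lower in Mapk9 KO: ctgaagaaggaaccaggagcctttgactgg
Nnmt, probe start 953, not called: ctccctagtggggcgaaagccaggcagatc
Sparc, probe start 2007, lower in Mapk9 KO: ccatgcaaactctcacagcaatgtgaagag
Sparc, probe start 1570, not called: acatgacagactcccagcagcccgggacct
Adamts9, probe start 20, lower in Mapk9 KO: gattaggaaaaccctgacagtattccccaa
Adamts9, probe start 1201, not called: ctctcattcaagctcatcctcacatctgat
Erdr1, probe start 581, lower in Mapk9 KO: cacccacgaaagcacacacgtagaagcgga
Erdr1, probe start 110, not called: gtgggcgtgaatggaaagtctaacccgtgt
Kif23, probe start 3095, lower in Mapk9 KO: gtatccagatcacgttgcccttttttattg
Kif23, probe start 2828, not called: gtagtcggaaacgaagatcgtccaccctag
Clcf1, probe start 423, lower in Mapk9 KO: acagtcacctcctgtgTTACTTGCGTGGCC
Clcf1, probe start 438, not called: TTACTTGCGTGGCCtcaaccgtcaggctgc

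Mapk9 was lower in the knockout wherever the normalized table held a probe for it, which was at 2 positions. Start 4211 read 10.88, 10.90 and 10.50 on the WT arrays and 9.14, 9.28 and 9.15 on the Mapk9 KO arrays. It fell by 1.57 (SE 0.21, limma adjusted p = 0.0151), a 2.97-fold difference, and stayed detected on all 6 arrays. Start 900 read 7.29, 6.23 and 7.09 in WT and 4.23, 4.09 and 4.28 in Mapk9 KO, where it was not detected on any array. That is at least 1.92-fold lower, the bound being set by the lowest value of a detected probe on each array, and the fitted difference was -2.67 (SE 0.28, limma adjusted p = 0.00244). The labels thus matched the direction of the targeted gene at both probes, while signal remained at the probe nearer the transcript's end. Which part of Mapk9 is deleted is not given in the sources used here, so neither probe can be tied to the deletion. The array carries 2 further Mapk9 probes outside the normalized table, and neither was detected on any of the 6 arrays. With the replicate number as a block, the adjusted p was 0.019 at start 900 and 0.061 at start 4211.

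The other genes of the JNK pathway did not pass the test. Of 37 probes for 20 kinases, activators, scaffolds and phosphatases of the pathway, the 2 called were those of Mapk9, and the median difference was -0.12. Mapk8 read 8.73, 8.89 and 8.50 in WT and 8.23, 8.75 and 8.39 in Mapk9 KO (difference -0.25, SE 0.22, limma adjusted p = 0.943). The upstream kinases Map2k4 (+0.06) and Map2k7 (-0.02) lay close to 0. Among 23 probes for 13 AP-1 and related factors none was called and 3 were lower at an unadjusted p under 0.05, beside 0.119% called and 3.38% lower among all probes. Fos, an AP-1 subunit, differed by -0.68 (SE 0.26, limma adjusted p = 0.690) and Jun by -0.36 (SE 0.21, limma adjusted p = 0.869). Early response genes, which are induced within minutes of a stimulus, also had no called member among 23 probes (median -0.20), and 4 probes were lower at an unadjusted p under 0.05, with Ier3 at -0.77 and Ccn1 at -0.82. Of 19 probes for cytokines and other genes of the cartilage injury response none was called, and their median was 0.02.

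**Figure D1:**
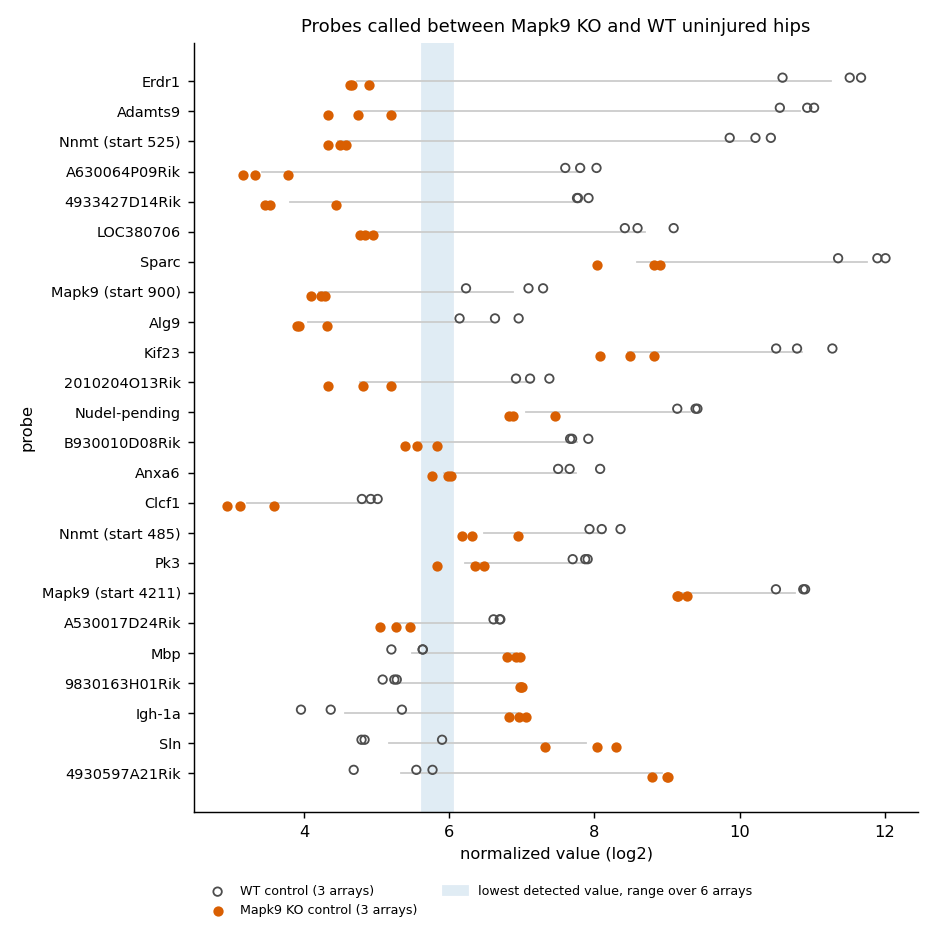
Normalized log2 values (x axis) of 24 called probes (y axis) on the 3 WT control arrays (open) and the 3 Mapk9 KO control arrays (filled), with a grey line between group means and a blue band at the lowest value of a detected probe on each of the 6 arrays. The groups do not overlap at any of the 24 probes, and 10 of the lower probes sit left of the band on all Mapk9 KO arrays and right of it on all WT arrays.

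Most of the called differences were between a detected and an undetected signal. Of the 19 lower probes, 10 were detected on all 3 WT arrays and on none of the Mapk9 KO arrays. Of the 6 higher probes, 4 were detected on no WT array and on all Mapk9 KO arrays. Only 5 called probes were detected on all 6 arrays. The Clcf1 probe was detected on none of them, so that no fold is given for it.

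Nnmt, which methylates nicotinamide, was called lower at 2 of its 3 probes. Its probe at start 525 read 10.22, 10.43 and 9.86 in WT and 4.58, 4.32 and 4.50 in Mapk9 KO, at least 18.9-fold lower (fitted difference -5.70, SE 0.22, limma adjusted p = 1.2e-06). Its second called probe, at start 485, was detected on all 6 arrays and read 7.93, 8.36 and 8.10 against 6.17, 6.31 and 6.94 (difference -1.66, SE 0.25, limma adjusted p = 0.0381). Start 953, the remaining probe, read 10.12, 10.51 and 9.84 against 8.46, 8.66 and 9.19 without overlap, but missed the threshold (difference -1.39, limma adjusted p = 0.137). All 3 probes were thus lower in Mapk9 KO, by -1.39 and -1.66 at starts 953 and 485 and at least 18.9-fold at start 525. At start 525 no Mapk9 KO array was detected, so -5.70 rests on values below detection. With the replicate block the probe at start 485 was no longer called (adjusted p = 0.105).

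Sparc, which encodes the matrix protein osteonectin, gave opposite signs at different probes. The called probe, at start 2007, read 11.90, 11.36 and 12.01 in WT and 8.03, 8.81 and 8.91 in Mapk9 KO (difference -3.17, SE 0.28, limma adjusted p = 0.00083). The brightest probe, at start 1570, read 14.05, 14.05 and 13.24 against 14.67, 14.14 and 13.55 (difference +0.34, SE 0.32, limma adjusted p = 0.949). Start 80 differed by +0.37, and a dim probe that the file names SPARC by -0.33. The fall at 1 probe was 9.01-fold, while neither of the bright RefSeq probes of the gene was lower.

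Adamts9, a secreted protease that cleaves proteoglycans, was called at 1 of its 3 probes. Its probe at start 20 read 10.93, 11.03 and 10.56 in WT and 4.33, 4.74 and 5.19 in Mapk9 KO, at least 29.9-fold lower (fitted difference -6.08, SE 0.26, limma adjusted p = 1.44e-06). Start 1201 differed by -0.01 (SE 0.21, limma adjusted p = 0.995), and another probe, named 8430403M15Rik in the file and matched to Adamts9, by -0.28. Among the 27 probes for matrix proteases and their inhibitors this probe was the only one called (0.119% of all probes were), and 4 were lower and 0 higher at an unadjusted p under 0.05, beside 3.38% and 3.08% of all probes. Adamts5 (-0.34) and Adamts4 (-0.25), the main aggrecanases, did not pass.

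Erdr1, a secreted factor gene on the X chromosome, was lower at 1 of its probes. Its probe at start 581 read 11.52, 11.67 and 10.59 in WT and 4.66, 4.89 and 4.63 in Mapk9 KO, at least 40.1-fold lower (fitted difference -6.54, SE 0.29, limma adjusted p = 1.44e-06). Start 110 was higher in Mapk9 KO, without overlap, at 8.30, 9.08 and 7.72 against 9.10, 9.49 and 10.01, but did not pass (difference +1.17, SE 0.35, limma adjusted p = 0.573). The probes of 1 gene therefore pointed in opposite directions.

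Kif23, a kinesin of cell division, read 10.79, 11.28 and 10.50 in WT and 8.07, 8.50 and 8.82 in Mapk9 KO at the probe at start 3095 (difference -2.40, SE 0.27, limma adjusted p = 0.00398). Its probe at start 2828 differed by -0.14, and the probes named KIF23 and Knsl5 by -0.84 and +0.37. Of 42 probes for 23 other cell cycle genes none was called by limma, beside 0.119% of all probes, and 1 was higher and 0 lower at an unadjusted p under 0.05 (median 0.20).

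Alg9, a mannosyltransferase of N-glycan assembly, was at least 1.56-fold lower at the probe at start 2169 (limma adjusted p = 0.00203), and its other 2 probes differed by -0.24 and -0.38. Anxa6, a calcium-dependent membrane-binding protein, read 7.66, 8.08 and 7.50 in WT and 5.76, 6.02 and 5.98 in Mapk9 KO at its called probe (difference -1.82, SE 0.22, limma adjusted p = 0.00823). The brighter Anxa6 probe differed by +0.15. Ttc19, needed for assembly of respiratory complex III, was at least 2.30-fold lower at a probe named 2010204O13Rik (limma adjusted p = 0.00309) and differed by -0.13 and -0.26 at the 2 probes named Ttc19. Clcf1, a cytokine of the interleukin-6 family, differed by -1.70 below detection, and the probe that overlaps it by -0.83. With the replicate block Clcf1 was not called (adjusted p = 0.105).

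Across all called genes, 11 had another probe in the table that was not called, 19 such probes in all. Of these 19, 13 differed by less than 0.5 in either direction. Called probes are left out of this count, so it omits Mapk9, whose probes in the table were all called, and the called Nnmt probes. The count therefore cannot show how often probes of the same gene agreed.

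**Figure D2:**
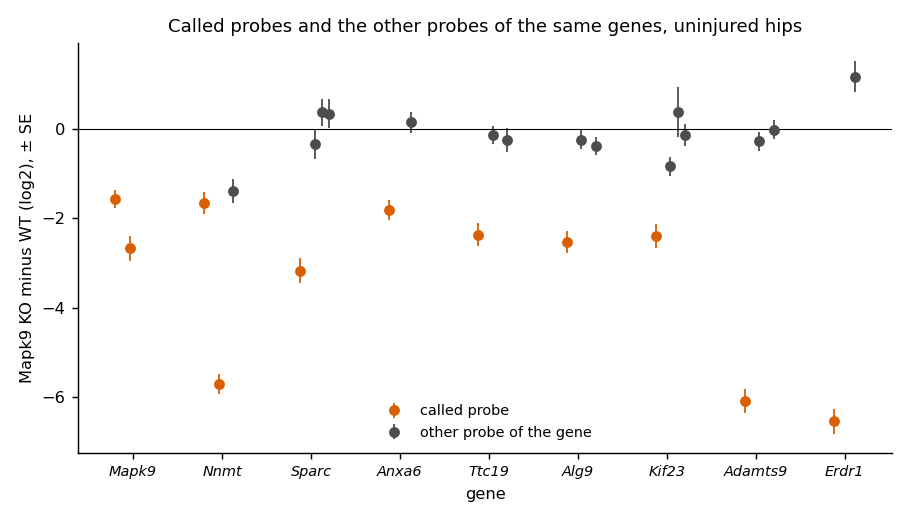
Difference between Mapk9 KO and WT uninjured hips (y axis, log2, with the standard error of the limma fit) at the called probes (orange) and at the other probes in the table (grey) for 9 genes (x axis). Both Mapk9 probes and all 3 Nnmt probes lie below 0, while for Sparc, Anxa6, Ttc19, Alg9 and Adamts9 the other probes lie between -0.38 and 0.37. The other probes of Kif23 lie between -0.84 and 0.37, and that of Erdr1 lies at 1.17.

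The remaining lower probes are given under the names they carry, and of these names only 4933427D14Rik was matched to the RefSeq gene table. A630064P09Rik (at least 3.67-fold lower), 4933427D14Rik (at least 3.69-fold) and LOC380706 (at least 6.81-fold) were detected on all WT arrays and on no Mapk9 KO array. Nudel-pending differed by -2.27 (limma adjusted p = 0.00241) and B930010D08Rik by -2.16 (limma adjusted p = 0.00183). Pk3 (-1.61) and A530017D24Rik (-1.42, at least 1.66-fold) were also called, and are named although they fall outside the 15 largest falls. With the replicate block neither was called (adjusted p = 0.061 and 0.105).

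The 6 higher probes began from undetected or barely detected signal in WT. On chromosome 11, 4930597A21Rik read 4.68, 5.55 and 5.77 in WT and 8.79, 9.02 and 8.996 in Mapk9 KO, at least 8.50-fold higher (fitted difference 3.60, SE 0.28, limma adjusted p = 0.000248). Sln encodes sarcolipin, a muscle protein that restrains the calcium pump of the sarcoplasmic reticulum, and read 4.83, 4.79 and 5.90 against 8.04, 8.30 and 7.32, at least 4.11-fold higher (limma adjusted p = 0.0103). Igh-1a, an immunoglobulin heavy chain gene, was at least 2.14-fold higher (limma adjusted p = 0.0152), and 9830163H01Rik at least 2.21-fold (limma adjusted p = 0.00309). A second Igh-1a probe, at start 1052, was undetected on all 6 arrays and differed by +0.70 (limma adjusted p = 0.588). With the replicate block neither Sln (adjusted p = 0.131) nor Igh-1a (adjusted p = 0.105) was called.

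Mbp, which encodes myelin basic protein, read 5.63, 5.64 and 5.20 in WT and 6.79, 6.97 and 6.92 in Mapk9 KO (difference 1.41, limma adjusted p = 0.0381). The groups did not overlap at this probe, while the 2 other Mbp probes differed by +0.06 and +0.53, and with the replicate block the probe was not called (adjusted p = 0.108).

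Muscle content differed between the arrays in the same direction as genotype. The mean over 24 skeletal muscle genes was 10.81, 10.09 and 12.31 on the WT arrays and 12.58, 12.56 and 12.30 on the Mapk9 KO arrays, so that WT control 3 lay with the Mapk9 KO arrays and the other two WT arrays lay lower. Genes of slow muscle fibres separated further, with means of 7.91, 7.46 and 10.28 in WT and 10.89, 11.12 and 10.92 in Mapk9 KO. The group mean was higher in Mapk9 KO for 24 of 24 skeletal and 7 of 7 slow muscle genes, and none was called. In a pooled bulk sample, more muscle tissue and more RNA per muscle fibre cannot be told apart.

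Myl2, the regulatory light chain of slow muscle, read 7.78, 6.61 and 11.28 in WT and 12.73, 12.91 and 12.06 in Mapk9 KO (difference 4.00, SE 0.89, limma adjusted p = 0.297). Tnnt1, slow troponin T, read 7.96, 8.20 and 9.80 against 11.003, 11.21 and 10.83 (difference 2.36, SE 0.41, limma adjusted p = 0.0861). Ckm, muscle creatine kinase, differed by 1.81 (SE 0.45, limma adjusted p = 0.416). Of 36 probes for skeletal muscle genes, 25 were higher and 0 lower at an unadjusted p under 0.05 (median 1.46), and of 8 probes for slow muscle genes all 8 were higher at that level (median 2.36), against 3.08% of all probes.

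The counts turned on 1 array. Without WT control 3, 412 probes (1.96%) were called in place of 25, 358 higher and 54 lower, and they held all 25. Of the muscle probes, 27 of 36 for skeletal muscle and 8 of 8 for slow muscle were then called, with Myl2 at 5.37 (limma adjusted p = 9.31e-05) and Ckm at 2.42 (limma adjusted p = 0.000861). With the skeletal muscle mean added to the fit of all 6 arrays as a covariate, 11 of the 25 probes remained called, the probes of Erdr1, Adamts9, Sparc, Alg9, A630064P09Rik, 4933427D14Rik, LOC380706, B930010D08Rik and 4930597A21Rik, the Nnmt probe at start 525 and the Mapk9 probe at start 900. All 14 probes no longer called had a larger SE with the covariate, and for 6 of them the difference was at least as large as without it. The Ttc19 probe differed by -2.37 in place of -2.36 (limma adjusted p = 0.0835), 9830163H01Rik by 1.78 in place of 1.79 (limma adjusted p = 0.0835) and Mbp by 1.70 in place of 1.41 (limma adjusted p = 0.124). Among the 8 with a smaller difference were Sln, at 1.90 (limma adjusted p = 0.267) in place of 2.71, and Kif23, at -1.89 (limma adjusted p = 0.167) in place of -2.40.

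**Figure D3:**
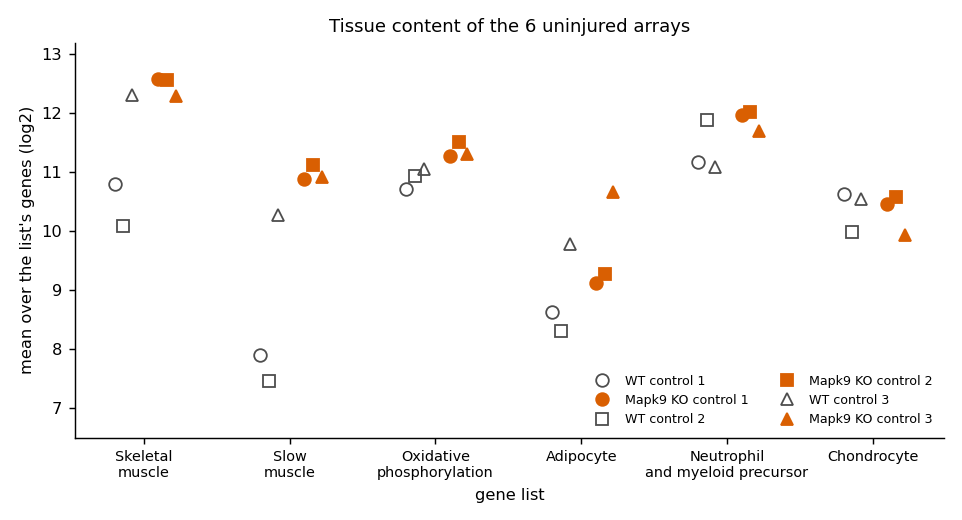
Mean normalized log2 value (y axis) over the brightest probe of each gene in 6 gene lists (x axis) on the 3 WT (open) and 3 Mapk9 KO (filled) uninjured arrays, with the symbol giving the replicate number. The skeletal muscle mean of WT control 3 (12.31) lies with the Mapk9 KO arrays (12.30 to 12.58), while WT control 1 and 2 read 10.81 and 10.09.

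Cartilage genes were bright on every array. Col2a1, the main cartilage collagen, read between 13.39 and 14.60 and Acan, encoding aggrecan, between 10.07 and 11.85, with differences of 0.29 and -0.05. Of 34 probes for 17 chondrocyte genes none was called by limma, beside 0.119% of all probes, and 1 was lower and 0 higher at an unadjusted p under 0.05 (median -0.17). Epyc was not detected on any of the 6 arrays.

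Marrow and fat genes were also present. Of 24 probes for neutrophils and their precursors 10 were higher in Mapk9 KO at an unadjusted p under 0.05 and 0 were called (median 0.54), beside 3.08% higher, 3.38% lower and 0.119% called among all probes. The neutrophil list mean was 11.18, 11.88 and 11.09 in WT against 11.98, 12.03 and 11.70. Adipocyte genes had a median of 0.73 over 9 probes, with Mapk9 KO control 3 (10.66) and WT control 3 (9.79) highest in their groups. Of 117 probes for oxidative phosphorylation genes, 33 were higher and 1 was lower at an unadjusted p under 0.05 (median 0.43). Their largest differences were at Cox7a1 (1.93), Cox8b (1.84) and Cox6a2 (1.59), which encode the muscle forms of cytochrome oxidase subunits, and none was called.

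The sex makeup of the pools also differed. Xist, the RNA that silences an X chromosome in female cells, read 10.37, 3.24 and 6.89 in WT and 10.72, 10.75 and 10.77 in Mapk9 KO at its brightest probe. The Y-linked Ddx3y was detected on all 6 arrays, at 11.37, 12.83 and 11.82 in WT and 11.23, 11.66 and 10.09 in Mapk9 KO. With Xist as a covariate 10 of the 25 probes remained called, including the Erdr1 probe and not the Mapk9 probe at start 4211 (limma adjusted p = 0.303), whose difference was -1.55 with an SE of 0.30, next to -1.57 with an SE of 0.21 without the covariate. The part of muscle and of sex in the differences was not tested beyond these fits.

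Clock genes lay mostly on the lower side without passing. Of 19 probes for 13 circadian clock genes, 8 were lower and 1 higher at an unadjusted p under 0.05, and 0 were called, beside 3.38% lower and 3.08% higher among all probes. Per3, a repressor of the clock, read 6.41, 5.79 and 6.69 in WT and 5.64, 4.66 and 5.29 in Mapk9 KO (difference -1.10, SE 0.31, limma adjusted p = 0.521). Per1 differed by -0.72 and Tef, a clock output factor, by -0.71. The time of day at which hips were collected is not given in the sources used here. Ribosomal protein (128 probes, median 0.19), heat shock (17 probes, 0.11), autophagy (23 probes, -0.01), apoptosis (28 probes, -0.11), interferon response (31 probes, -0.15) and antigen presentation genes (22 probes, -0.10) had 0 called members by limma, against 0.119% of all probes, and at an unadjusted p under 0.05 they had between 0 and 5 probes each.

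Called probes were unevenly spread over the chromosomes, a pattern noticed after the values were seen. Mapk9 lies on chromosome 11, which held 7 called probes of 1522 (0.460%), and chromosome 9 held 6 of 1010 (0.594%). The other chromosomes together held 5 of 15574 (0.0321%), and 7 of 2898 probes without a chromosome (0.242%) were called. On chromosome 9 the called probes were those of Nnmt, Alg9, Sln, Kif23 and 9830163H01Rik, and on chromosome 11 those of Mapk9, Sparc, Anxa6, Ttc19, 4933427D14Rik and 4930597A21Rik.

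In the order of genes along chromosome 11, none of the nearest neighbours of Mapk9 was called. Among the 100 RefSeq genes on each side, 56 were measured by 78 probes, of which 0 were called by limma (lowest adjusted p = 0.687, median difference 0.00), and 12 probes (15.4%) had groups without overlap, against 10.8% of all probes. Counted in measured genes, 4930597A21Rik lay 27 genes before Mapk9, Anxa6 53, Sparc 56, Ttc19 124 and 4933427D14Rik 233 genes after it. All 7 called probes of the chromosome, the 2 of Mapk9 included, lay within 300 measured genes of it, and beyond that distance 0 of 790 probes were called (lowest limma adjusted p = 0.292). That window is wide. Without Mapk9 it held 471 of the chromosome's 991 measured genes and 729 probes, of which 5 were called (0.686%). On chromosome 9, Nnmt, Alg9, Sln and Kif23 held ranks 203, 218, 229 and 292 of 674 measured genes. 9830163H01Rik could not be placed in this order.

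**Figure D4:**
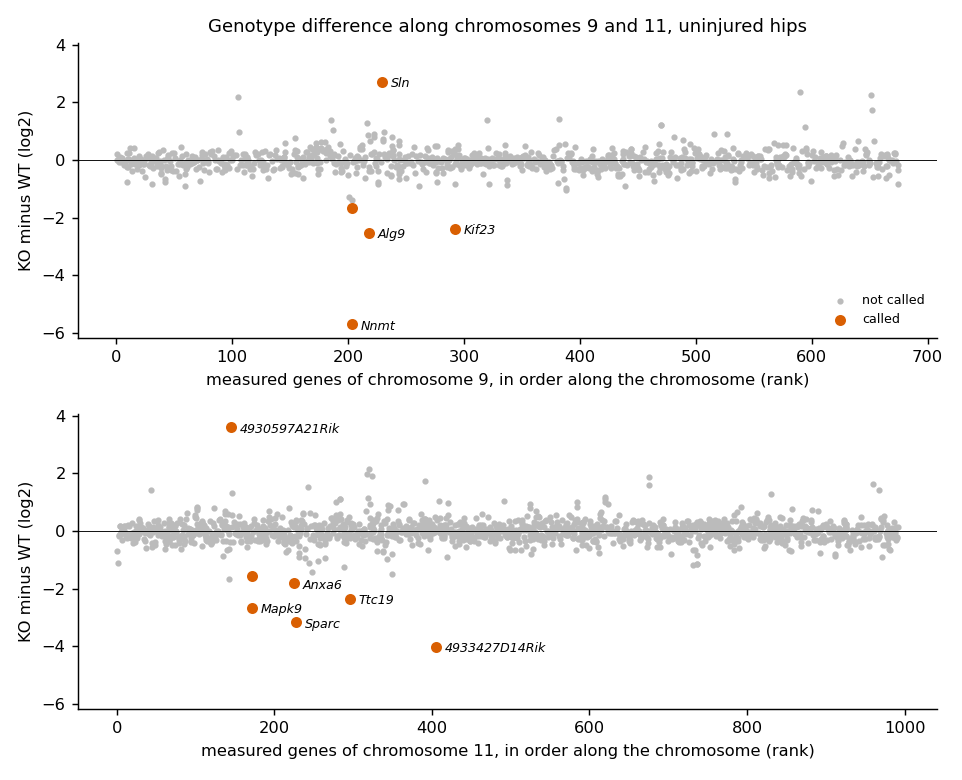
Difference between Mapk9 KO and WT uninjured hips (y axis, log2) for each probe of chromosome 9 (top) and chromosome 11 (bottom), ordered by the rank of its gene along the chromosome (x axis), with called probes in orange. Called probes lie between ranks 203 and 292 on chromosome 9 and between ranks 145 and 405 on chromosome 11, where Mapk9 has rank 172.

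Injured hips gave a second comparison of the same genotypes on arrays that did not enter the first. There 38 of 21004 probes (0.181%) were called, and 18 of the 25 probes called in uninjured hips were among them, all with the same direction. Of the 13 on chromosome 9 or 11, 12 were called again, the exception being Sln, while 2 of 5 on other chromosomes and 4 of 7 without a chromosome were called again. Muscle content did not follow genotype on these arrays. The skeletal muscle mean was 7.50, 8.47 and 9.31 in injured WT and 8.16, 8.96 and 7.85 in injured Mapk9 KO, so that the groups overlapped and every injured array lay below the uninjured ones. The sex makeup of the injured pools is not given here. On the X chromosome, 6 of 519 probes were called in injured hips and 1 in uninjured hips.

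Sparc differed by -3.18 at its called probe in injured hips (limma adjusted p = 0.00787), next to -3.17 in uninjured hips. Kif23, detected on all injured arrays, was called again at -2.89. Adamts9 (at least 27.7-fold lower) and Alg9 (at least 1.83-fold lower) were called again with no injured Mapk9 KO array detected, and 4930597A21Rik (at least 14.5-fold higher) with no injured WT array detected. Nnmt was called at all 3 probes, at least 8.20-fold lower at start 525, at least 2.33-fold lower at start 485 and by -2.51 at start 953, where all injured arrays were detected. Mapk9 differed by -1.57 at start 4211, and its probe at start 900 was called again but detected on only 1 of 6 injured arrays. The probe of Erdr1 at start 110, not called in uninjured hips, was called higher in injured Mapk9 KO hips (1.07, limma adjusted p = 0.0312).

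The probes not called again included those of Sln, Mbp, Igh-1a, Clcf1, Pk3 and A530017D24Rik. Sln read 4.20, 4.28 and 4.61 in injured WT and 2.64, 4.40 and 4.83 in injured Mapk9 KO, below detection in both. Mbp (0.25) and Igh-1a (0.91) did not pass, nor did Pk3 (-0.63) and A530017D24Rik (-0.23), and Clcf1 turned to +1.15 (limma adjusted p = 0.282). In the test of the difference between the genotype effects of injured and uninjured hips over all 12 arrays, limma called 0 probes, with 2088 at an unadjusted p under 0.05, so no difference given here is shown to be particular to uninjured hips. With the replicate number as a block 112 probes passed the adjusted threshold in that test, among them the probes of Erdr1 and Clcf1, for which all uninjured Mapk9 KO arrays were below detection.

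**Figure D5:**
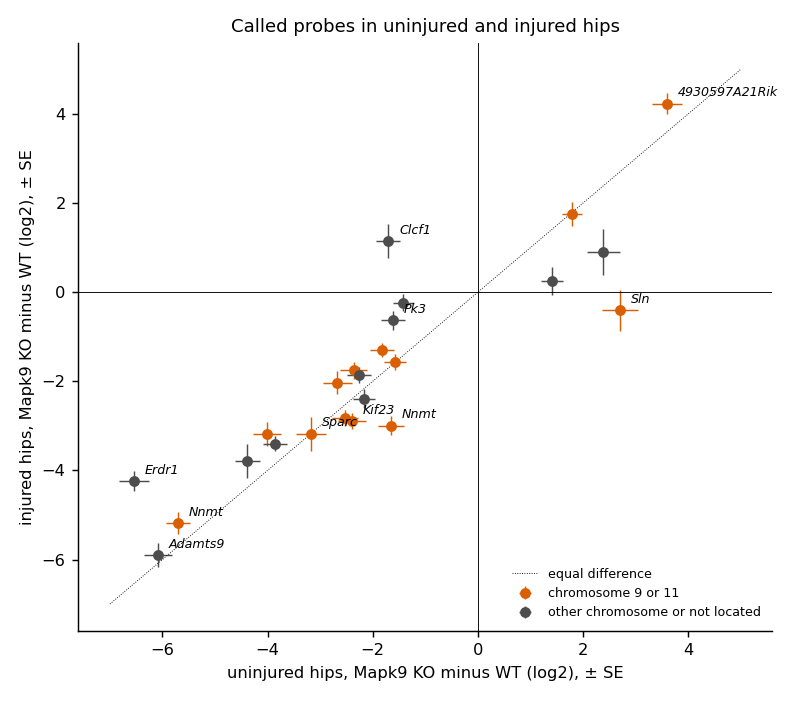
Difference between Mapk9 KO and WT in injured hips (y axis, log2, ± SE) against that in uninjured hips (x axis, log2, ± SE) for 24 called probes, with those on chromosome 9 or 11 in orange, the others in grey and equal differences on the dotted line. In 22 of the 24 probes the sign is the same, and Clcf1 and Sln are the exceptions.

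Just outside the threshold, 11 probes past the fold limit had a limma adjusted p between 0.05 and 0.1, 4 of them on chromosome 11 and 0 on chromosome 9. Rnf41, encoding a ubiquitin ligase, was detected on the WT arrays and on no Mapk9 KO array, at least 1.35-fold lower in uninjured hips (limma adjusted p = 0.0675) and, called there, at least 1.22-fold lower in injured hips. Miat, a long non-coding RNA, differed by -2.04 and Rgs11, a regulator of G protein signalling, was at least 1.05-fold lower (limma adjusted p = 0.0631 for both). Inmt, an indolethylamine methyltransferase, was at least 1.90-fold higher (limma adjusted p = 0.0749), and Tnnt1, the slow muscle troponin T, differed by +2.36 (limma adjusted p = 0.0861). On chromosome 11, Fam183b (+1.53, undetected on all arrays) had a limma adjusted p of 0.0589, and Fxr2 (-1.48), Ublcp1 (-1.66) and Thg1l (+1.30) had values between 0.0861 and 0.0965. In injured hips Fxr2 (-1.94, limma adjusted p = 0.00214) and Thg1l (+1.68, limma adjusted p = 0.0301) were called. Ublcp1 (-1.03) and Fam183b (+0.34) were not called there. The remaining pair were A930024F09Rik (+1.20) and D130059O18Rik (-1.27). Further from the threshold, Mup1 and Mup2, major urinary protein genes that liver expresses strongly, differed by 2.71 to 2.90 over 3 probes (limma adjusted p from 0.127 to 0.297). With the replicate block 1 Mup1 probe was called (adjusted p = 0.019), and the other Mup1 probe (adjusted p = 0.0862) and Mup2 (adjusted p = 0.0549) were not. Mup1 and Mup2 were chosen after their values were seen.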

How the data were processed

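Total RNA of mouse hip cartilage was measured on Illumina BeadChips. Bead signal intensities of 45281 probes were deposited, each with a detection p-value. They corrected background with negative controls, normalized with vsn and deposited log2 values for 21004 probes (46.4%). Versions are not given in the sources used here.

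The deposited log2 values of the 3 Mapk9 KO and 3 WT control arrays were compared in R 4.3.3 by limma 3.58.1 (lmFit, eBayes), and p-values were adjusted by Benjamini-Hochberg across 21004 probes. Calls needed an adjusted p below 0.05 and a fold change greater than 2. For probes undetected (deposited p-value of 0.05 or above) throughout 1 group, a bound is given: the brighter group's mean against the dimmer group's, each dim array taken at the lowest value that any detected probe had there, or at the probe's value if higher. The number of arrays limits the precision. On simulated data with 200 changed probes per draw, 70% of probes with a log2 change of 1.5 and 84.8% of those with a change of 2 were recovered, with a mean of 8.2 false calls per draw. The simulated noise was normal and independent between probes and arrays. It held no difference shared by many probes, such as muscle content, so these rates need not hold for the real arrays.

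Probe names were compared with a RefSeq gene table (GRCm38.p6), used only for names, chromosomes and gene order. Of the probes, 18106 had a chromosome. The files name no genome build, so no coordinates are given. Sequences are those of the deposited table, and probe starts are positions in the transcript as the table gives them.

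Genes named are Mapk9, at most 15 rises and 15 falls among called genes whose groups do not overlap, and members of fixed gene lists. Also named are Pk3 and A530017D24Rik, the probes just outside the threshold, and Mup1 and Mup2. Not every gene so selected is reported here. The members and lists were chosen with earlier results of these data known. Lists are described by the count of their probes, and list means use the brightest probe of each gene.

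Deviations from the group mean correlated between WT and Mapk9 KO control arrays of the same replicate number (0.172, 0.235 and 0.294), so the numbers were treated as pairing the arrays and a replicate block was fitted as an alternative. Other alternatives were neqc, quantile normalization, array medians subtracted, a detection filter, all 12 arrays, a block by label code number, a muscle covariate, the methods' t-test, other thresholds, a single probe per gene and leaving out each array. The Xist covariate was chosen after seeing the data.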

Additional observations from a re-analysis of the deposited data

Results flagged for a closer look

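For the called probes of Erdr1 and Clcf1 the genotype effect differed between injured and uninjured hips in the fit of all 12 arrays with the replicate number as a block. Erdr1, at the probe at start 581, differed by 2.29 between the effects (adjusted p = 0.0368 with the block), from -6.54 in uninjured to -4.25 in injured hips. Its uninjured Mapk9 KO arrays were all below detection, where the fall is bounded as at least 40.1-fold, so the size of 2.29 rests on values below detection. Clcf1 differed by 2.85 (adjusted p = 0.0368 with the block), from -1.70 to +1.15. No uninjured array detected this probe, and by neqc its uninjured difference was -0.40 (adjusted p = 0.688), so the size of 2.85 also rests on values below detection. Without the block limma called 0 probes in this test, and 2088 had an unadjusted p under 0.05.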

How the results depend on the processing

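The count of called probes, 25 (6 higher and 19 lower), rose or fell by over 1.5 times under several settings. It was 13 (2 and 11) with quantile normalization without background correction, 11 (1 and 10) with the skeletal muscle mean as a covariate, 10 (1 and 9) with Xist as a covariate and 16, with 10 lower, for the highest-mean probe per gene. It was 44 (11 and 33) with all 12 arrays in the fit and 51 (13 and 38) with the replicate block added to these. By the methods' t-test, 93 probes (34 and 59) passed unadjusted and 0 (0 and 0) after Benjamini-Hochberg adjustment, with 1178 at an unadjusted p under 0.05. With each array left out in turn the count ran from 17 to 412, from 3 to 358 higher and from 13 to 54 lower. WT control 3 gave the upper end, and without it all 25 probes kept their call. Without Mapk9 KO control 1 or 2, 3 probes were called higher. Without WT control 1 or 2, 17 and 21 of the 25 remained, and without Mapk9 KO control 1, 2 or 3, 16, 17 and 19. The probes lost were Mapk9 at start 4211, Nnmt at start 485, Anxa6, Clcf1, Pk3, A530017D24Rik, Mbp, Igh-1a and Sln, with adjusted p from 0.0513 to 0.325. Chromosomes 9 and 11 held 13 of the 25 called probes. They held 70 of 412 without WT control 3 and 28 of 93 by the unadjusted t-test. With the muscle covariate they held 6 of 11, and with Xist 6 of 10. Quantile normalization alone gave 6 of 13 there, and the highest-mean probe per gene 6 of 16. Other settings with calls gave from 9 to 19 there.

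Paired by replicate number, the replicate block gave 19 called probes, 17 of them among the 25. Those lost were the Mapk9 probe at start 4211, the Nnmt probe at start 485, Clcf1, Pk3, A530017D24Rik, Igh-1a, Mbp and Sln.

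For Mapk9 the direction held under every setting run. The probe at start 4211 lost its call with the replicate block (-1.57), the muscle covariate (-1.31), Xist (-1.55) and the adjusted methods' t-test (-1.57), and without WT control 1 or any 1 Mapk9 KO array, with values from -1.70 to -1.50 over arrays left out. The probe at start 900 lost it with quantile normalization alone (-0.85) and with the adjusted methods' t-test (-2.67). No called probe changed sign under any setting run, 16 of the 25 kept their call with each array left out, and none kept it under every setting. The causes were not tested. Requiring detection on 3 arrays gave 29 called probes. The Clcf1 probe, below detection, was left out there and lost its call with neqc.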
